A study of Homo sapiens with 6 samples.

Results

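The RNA of 10 genes whose surface proteins are read by T cells and NK cells was followed in U-2 OS cells, a human osteosarcoma line, by bulk RNA-seq. The genes are TNFRSF14, NECTIN4, NECTIN2, PVR, CD274, CD276, ULBP1, ULBP2, MICA and MICB, a list set by gene symbol, out of 21447 genes with an annotated transcript in the files. Unsynchronized cells were left untreated (UT; 3 libraries) or given 4 Gy of ionizing radiation and harvested 24 h later (IR; 3 libraries), and no other agent or allele is named for these libraries in the sources used here. The genes were chosen by name, with the estimated counts summed per gene and their IR–UT difference in these libraries already known, so that each gene's difference is given below as a description, with its confidence interval and without a P value. The libraries measure RNA in a cell line grown alone, and neither protein at the cell surface nor any immune cell was measured. The study describes the 3 libraries of a group as independent samples, all of one line, and the P values given for other genes cover the spread between these samples.

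The 10 proteins fall into 4 families. TNFRSF14, also called HVEM, is a member of the TNF receptor superfamily that engages the inhibitory lymphocyte receptors BTLA and CD160 and the cytokine LIGHT. PVR (CD155) and NECTIN2 (CD112) are immunoglobulin-like adhesion molecules that bind the activating receptor DNAM-1 (CD226) and the inhibitory receptors TIGIT and, for NECTIN2, PVRIG, and NECTIN4 is a further nectin, best known as the target of an antibody–drug conjugate used in urothelial cancer. CD274 (PD-L1) and CD276 (B7-H3) belong to the B7 family, and PD-L1 inhibits T cells through PD-1. ULBP1, ULBP2, MICA and MICB are stress-inducible relatives of MHC class I that present no peptide and activate NK cells through the receptor NKG2D.

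Of the 10 genes, 7 were called higher after IR (TNFRSF14, NECTIN4, NECTIN2, CD274, CD276, ULBP2 and MICA), none was called lower and 3 (PVR, ULBP1 and MICB) were not called, where a call is an adjusted P value under 0.05 in edgeR's quasi-likelihood test over all 14323 genes tested. Among all tested genes 15.5% were called higher and 14.5% lower, or 30.1% in either direction, and nothing is read from the count of the 10 against these shares, since the list was made with this comparison known. Without IR replicate 2 the number of the 10 genes called was 4. The size of the difference separated TNFRSF14 and NECTIN4, which were 3.84-fold and 4.90-fold higher after IR in the fit, from the other 5 called genes, whose fold ranged from 1.23 for MICA to 1.56 for CD274. The median log2 fold change was 0.38 over the 10 genes and 0.01 over all genes tested. In CPM, counts scaled to library size, every IR library lay above every UT library for 8 of the 10 genes, against 23.8% of all tested genes, and for none did every IR library lie below, against 23.3%. The groups overlapped for PVR and ULBP1, and MICB, which was not called, is among the 8. For the same reason as above, nothing is read from these counts or from the median of the 10 genes.

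The libraries held between 18573309 and 22953834 estimated counts, except IR replicate 3 with 45308792. That library differed most from the others of its group, with a chi-square per gene of 29.1 and 32.2 against IR replicates 1 and 2, beside 3.45 to 9.16 for the other pairs of replicates, a measure that also grows with depth. Its file name carries a mark that the others lack and that is not explained in the sources used here. Without it 6 of the 10 genes were called higher. All 10 genes passed the filter on low counts, but 5 of them (TNFRSF14, NECTIN4, CD274, ULBP1 and MICB) had fewer than 100 counts in every UT library, and 4 (NECTIN2, PVR, CD276 and MICA) had more than 1000 in every library. As a check of the treatment, CDKN1A, which encodes the cell cycle inhibitor p21, stood at 122 ± 1.70 CPM in UT and 351 ± 34.9 CPM in IR libraries (SD, n = 3 each). The summed level of 10 osteoblast and mesenchymal markers was 3839 to 4175 TPM (a level scaled to transcript length and library size) in UT and 3810 to 4489 TPM in IR libraries, led by SPARC and VIM, although SP7, a defining osteoblast factor, was at 0 in every library and COL1A2 stayed under 1 TPM. The 9 lymphocyte and NK cell markers summed to 2.97 to 8.01 TPM in UT and 2.91 to 3.91 TPM in IR libraries, with CD3E, CD2 and NKG7 among those at 0 throughout. PTPRC stood at 0.88 to 3.5 TPM over the 6 libraries, CD3D at 0.30 to 2.5 TPM and KLRD1 at 0.27 to 1.99 TPM. The 6 myeloid markers summed to 7.60 to 14.5 TPM in UT and 11.1 to 21.7 TPM in IR libraries, nearly all of it from CD68, with AIF1 at 0. The 6 epithelial markers, mostly KRT8 and KRT18, summed to 320 to 354 TPM in UT and 378 to 468 TPM in IR libraries, a shift whose part in the values below was not tested.

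The sequence before the transcription start is shown for 5 of the genes, the 2 with the largest difference (TNFRSF14 and NECTIN4), the one with an interferon-type element (CD274), and the close relatives MICA and MICB. The sequences are RefSeq's for GRCh38.p14, on the strand of the gene, 5′ to 3′, from the 250 bases before the start, and where an exon of the gene itself reaches into that window only the longest stretch free of it is given. The stretches lie at chr1:2556262-2556370 (plus strand) for TNFRSF14, chr1:161089559-161089808 (minus strand) for NECTIN4, chr9:5450292-5450502 (plus strand) for CD274, chr6:31403345-31403444 (plus strand) for MICA and chr6:31497895-31498085 (plus strand) for MICB. Capitals mark matches to the motifs named below.
TNFRSF14: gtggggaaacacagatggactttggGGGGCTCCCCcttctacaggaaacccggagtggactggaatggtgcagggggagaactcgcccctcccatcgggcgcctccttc
NECTIN4: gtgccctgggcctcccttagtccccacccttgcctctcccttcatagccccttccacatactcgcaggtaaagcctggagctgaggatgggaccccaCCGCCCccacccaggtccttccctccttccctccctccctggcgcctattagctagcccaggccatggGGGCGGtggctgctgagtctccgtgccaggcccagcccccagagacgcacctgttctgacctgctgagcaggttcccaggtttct
CD274: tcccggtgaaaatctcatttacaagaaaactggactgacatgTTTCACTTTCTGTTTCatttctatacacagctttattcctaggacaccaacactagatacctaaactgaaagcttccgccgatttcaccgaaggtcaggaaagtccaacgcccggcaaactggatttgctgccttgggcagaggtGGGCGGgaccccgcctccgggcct
MICA: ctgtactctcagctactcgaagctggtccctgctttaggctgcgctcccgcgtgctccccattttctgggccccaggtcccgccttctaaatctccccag
MICB: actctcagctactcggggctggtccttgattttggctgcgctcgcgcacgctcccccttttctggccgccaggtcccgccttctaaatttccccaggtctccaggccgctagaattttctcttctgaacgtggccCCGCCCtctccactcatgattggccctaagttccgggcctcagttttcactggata

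Motifs were searched on both strands in the whole 250 bases, for all 10 genes and for 27305 RefSeq promoters. The GC box GGGCGG was found for 8 of the 10 genes (all but TNFRSF14 and PVR), beside 42.3% of all promoters, and NECTIN4 held it on both strands. In CD274 the interferon-stimulated response element, searched as GAAA, any 2 bases and GAAA, matched at 2 overlapping places within TTTCACTTTCTGTTTC on the opposite strand, a motif present in 3.07% of all promoters and in no other gene of the list. TNFRSF14 held the NF-kB motif as GGGGCTCCCC, which 5.05% of all promoters share and none of the other 9 genes. None of the 10 windows matched the TATA box TATAAA (11.1% of all promoters), the AP-1 site TGANTCA (6.60%) or the E2F site TTTGGCGC or TTTCGCGC (0.996%). The MICA and MICB windows were 85.4% identical over 246 aligned bases, whereas ULBP1 and ULBP2, which lie close together on chromosome 6, were 66.0% identical over 200 aligned bases, close to the 63.6% of the unrelated pair TNFRSF14 and NECTIN4. A match describes letters in the window and says nothing about binding, and the MICA match to the GC box lies outside the stretch shown.

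Compared per length, the genes spanned a wide range in UT cells. CD276 stood highest at 75.3 ± 3.80 TPM, followed by MICA at 60.01 ± 1.78, NECTIN2 at 54.2 ± 6.84 and PVR at 51.6 ± 2.85 TPM (SD, n = 3). ULBP2 was intermediate at 10.0 ± 1.85 TPM. The remaining 5 genes were low, with TNFRSF14 at 2.14 ± 0.42, CD274 at 1.64 ± 0.74, MICB at 0.82 ± 0.29, NECTIN4 at 0.74 ± 0.31 and ULBP1 at 0.49 ± 0.15 TPM. The ranges of 3 libraries did not overlap between CD276 and MICA, between PVR and ULBP2 or between ULBP2 and TNFRSF14, while every other pair of neighbours in this order overlapped. MICA and MICB, whose promoter windows are the most alike of the pairs compared, stood at second and eighth place. The RefSeq start behind the MICB window lies at −7790 bases from the start of MICB-203. That retained-intron transcript held 64.3 ± 12.5% of MICB counts in UT libraries, so the window is not the sequence before it. After IR the order of the upper 6 genes was the same, and NECTIN4 moved from ninth to seventh place at 5.05 ± 1.23 TPM, above CD274 and MICB. Each of these TPM values is a level of RNA, and ranks within the low group rest on few reads.

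**Figure D1:**
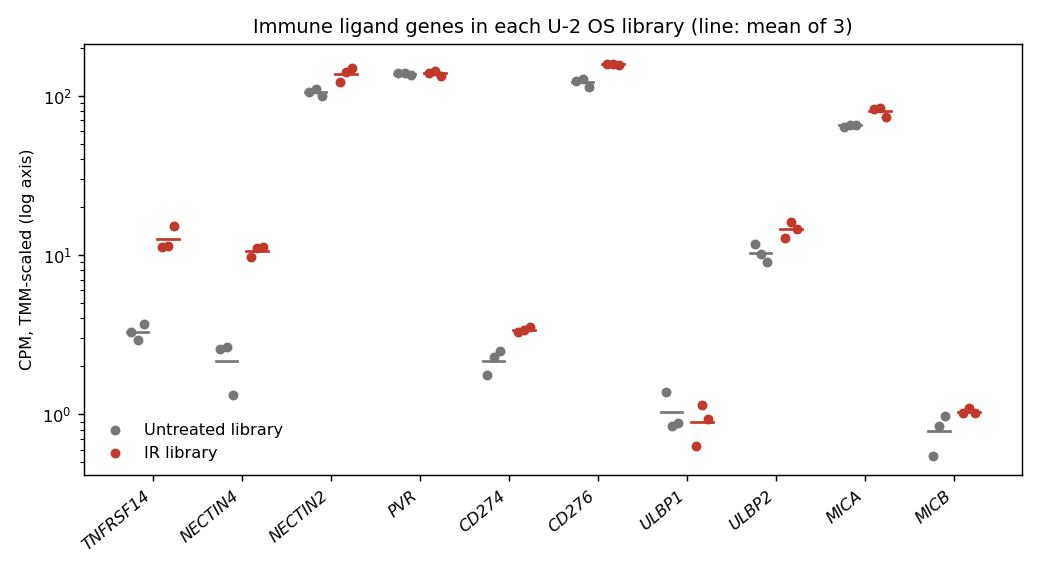
CPM of each gene (log axis) in the 3 UT libraries (grey) and the 3 IR libraries (red), with a line at each group's mean. The red points of TNFRSF14 and NECTIN4 lie far above the grey ones, those of PVR and ULBP1 overlap them, and the scale runs from under 1 CPM for MICB to above 150 CPM for CD276.

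TNFRSF14 (ENSG00000157873, chr1:2555639-2565382, plus strand) was measured at 3.29, 2.94 and 3.67 CPM in UT replicates 1 to 3, from 60, 66 and 75 counts. In IR replicates 1 to 3 it stood at 11.2, 11.3 and 15.1 CPM, from 232, 208 and 684 counts. The lowest IR library was thus well above the highest UT library, and the deepest IR library was the highest of all. Counting error alone places UT replicate 3 between 2.88 and 4.59 CPM and IR replicate 1 between 9.83 and 12.8 CPM (95% exact Poisson intervals, which cover counting error only). The log2 fold change was 1.94 ± 0.17 (SE; 95% confidence interval 1.57 to 2.31), the 14th highest of all 14323 genes tested. It was called under all 17 alternatives, with log2 fold changes between 1.56, with each library's GC trend removed, and 2.10, with an offset for effective length. In TPM the means were 2.14 ± 0.42 in UT and 8.86 ± 2.44 in IR libraries, a ratio of 4.14. As for all genes in bulk RNA, more RNA in each cell and more cells with the RNA cannot be told apart.

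NECTIN4 (ENSG00000143217, chr1:161070998-161089558, minus strand) had the largest difference of the 10 genes. The UT libraries held 2.58, 2.63 and 1.32 CPM, from 47, 59 and 27 counts, and the IR libraries 9.73, 11.1 and 11.2 CPM, from 201, 204 and 505 counts. The IR libraries lay close together, whereas UT replicate 3 was the lowest, with a counting interval of 0.87 to 1.92 CPM that does not reach the values of the other 2 UT libraries. The log2 fold change was 2.29 ± 0.22 (95% confidence interval 1.80 to 2.79), the 5th highest of all genes tested. It ranged from 2.03 to 2.47 when single libraries were left out and reached 2.83 with the offset for effective length, and the gene was called in 17 of 17 alternatives.

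NECTIN2 (ENSG00000130202, chr19:44846175-44889223, plus strand) is expressed far more strongly. It stood at 106, 111 and 99.7 CPM in UT and at 122, 142 and 150 CPM in IR libraries, so that the groups did not overlap, although in TPM they did. The log2 fold change was 0.38 ± 0.09 (95% confidence interval 0.19 to 0.57). With the GC trend removed it was 0.11, and the call, held in 13 of 17 alternatives, was lost there and with the offset for effective length (0.40). PVR (ENSG00000073008, chr19:44643798-44666162, plus strand), the other ligand of TIGIT and DNAM-1, differed least of all. It was at 139, 138 and 135 CPM in UT and at 139, 142 and 134 CPM in IR libraries, and its log2 fold change was 0.01 ± 0.06. Its 95% confidence interval in this fit ran from −0.13 to 0.14 on the log2 scale. With the GC trend removed the estimate was −0.12 ± 0.06 (SE), so the range depends on the scaling. The 3 nectin family members on the list therefore spanned folds of 1.01 for PVR, 1.30 for NECTIN2 and 4.90 for NECTIN4.

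CD274 (ENSG00000120217, chr9:5450503-5470566, plus strand), which encodes PD-L1, was low in all libraries. It stood at 1.76, 2.27 and 2.49 CPM in UT libraries, from 32, 51 and 51 counts, and at 3.29, 3.38 and 3.54 CPM in IR libraries, from 68, 62 and 160 counts. The IR values lay above the UT values in CPM, but the counting intervals of UT replicate 3 (1.86 to 3.28 CPM) and IR replicate 1 (2.56 to 4.17 CPM) overlapped, as did the groups in TPM. The log2 fold change was 0.64 ± 0.20 (95% confidence interval 0.20 to 1.09). The estimate stayed positive, between 0.35 and 0.78, in all 17 alternatives, but the call held in only 7 of them. It was lost in the DESeq2 Wald test, with the offset for effective length (0.46), in TPM with limma (0.35) and from coding transcripts alone (0.67), and whenever UT replicate 1 (0.52) or 2 (0.68) or IR replicate 1 (0.65), 2 (0.65) or 3 (0.60) was left out. CD276 (ENSG00000103855, chr15:73683966-73714514, plus strand), the highest of the 10 genes in UT cells, stood at 123, 128 and 114 CPM there and at 159, 159 and 155 CPM after IR. These groups were well apart, and the log2 fold change was 0.38 ± 0.07 (95% confidence interval 0.23 to 0.52). Removing the GC trend lowered it to 0.17 and ended the call, and counting only transcripts annotated as protein coding raised it to 1.10 with no call.

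Among the NKG2D ligands, MICA (ENSG00000204520, chr6:31399784-31415315, plus strand) was the most abundant. It stood at 64.0, 65.9 and 65.7 CPM in UT and at 83.0, 83.3 and 73.8 CPM in IR libraries, with the UT libraries close together and IR replicate 3 lowest of its group. The log2 fold change was 0.29 ± 0.07 (95% confidence interval 0.14 to 0.45), and the call, held in 13 of 17 alternatives, was lost without UT replicate 1 (0.28) or IR replicate 2 (0.26). The MICA call was also lost in TPM with limma (0.28) and with the replicate block and the GC trend removed together (0.22). ULBP2 (ENSG00000131015, chr6:149942014-149949235, plus strand) stood at 11.8, 10.2 and 8.99 CPM in UT and at 12.9, 16.2 and 14.5 CPM in IR libraries. Its groups were separated by a narrow gap, between UT replicate 1 and IR replicate 1, and its log2 fold change was 0.49 ± 0.13 (95% confidence interval 0.20 to 0.78). The call held in 12 of 17 alternatives and was lost without UT replicate 2 (0.48), UT replicate 3 (0.40) or IR replicate 2 (0.41). It was also lost with the offset for effective length (0.52) and in TPM with limma (0.46).

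The other 2 NKG2D ligands were near the limit of measurement. ULBP1 (ENSG00000111981, chr6:149963943-149973715, plus strand) had 25, 19 and 18 counts in UT libraries, or 1.37, 0.85 and 0.88 CPM. It had 13, 21 and 42 counts in IR libraries, or 0.63, 1.14 and 0.93 CPM, and the groups overlapped. Its log2 fold change was −0.19 ± 0.33, and the 95% confidence interval of −0.92 to 0.55 leaves room for changes in either direction. MICB (ENSG00000204516, chr6:31494881-31511124, plus strand) had 10, 19 and 20 counts in UT libraries, or 0.55, 0.85 and 0.98 CPM, and 21, 20 and 46 counts in IR libraries, or 1.02, 1.09 and 1.02 CPM. The IR values lay just above the UT values, but with 20 counts in UT replicate 3 the counting interval ran from 0.60 to 1.51 CPM and took in all 3 IR libraries. The log2 fold change of MICB was 0.38 ± 0.30 (95% confidence interval −0.29 to 1.05), about that of NECTIN2 and CD276, and a difference from 0 was not detectable at this depth. A difference of the size seen for MICA lies within the intervals of both ULBP1 and MICB.

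**Figure D2:**
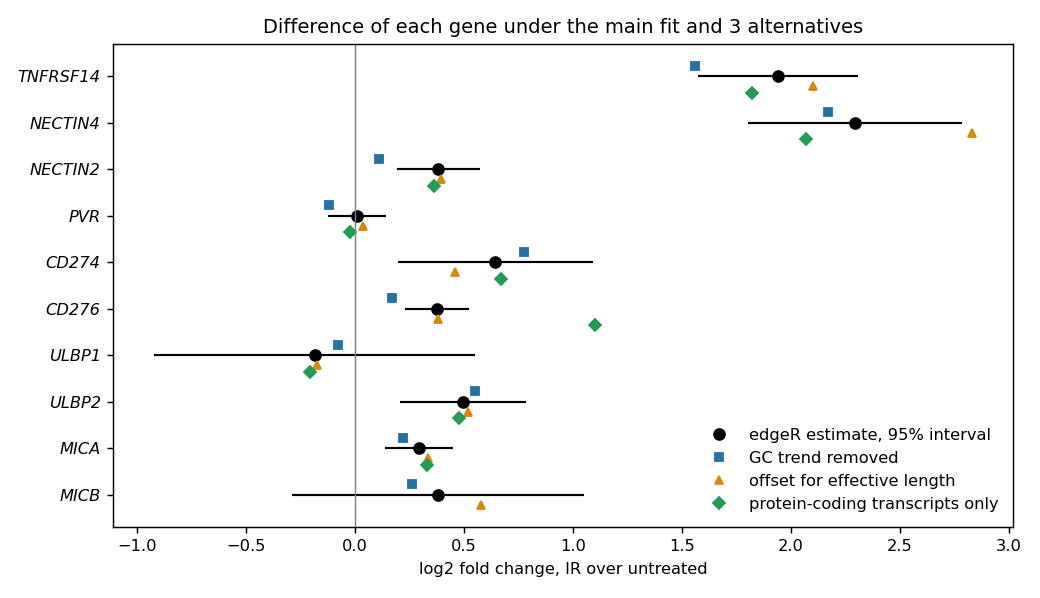
log2 fold change of each gene, IR over UT (black, with 95% confidence interval), beside the estimate with the GC trend removed (blue squares), with an offset for effective length (orange triangles) and from protein-coding transcripts alone (green diamonds). TNFRSF14 and NECTIN4 stay above 1.5 in each, NECTIN2 and CD276 move towards 0 with the GC trend removed, and CD276 moves to 1.10 with coding transcripts, where MICB has no value.

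The GC content of a gene moved with its difference across the whole table. In the eighth of tested genes with the lowest GC content, 3.63% were called higher and 32.7% lower (median log2 fold change −0.19), and in the highest eighth 45.1% were called higher and 0.614% lower (median 0.34). NECTIN2, with 60.8% GC, belongs to the highest eighth, and its log2 fold change of 0.38 was near that eighth's median, above 55.6% of its genes. CD276 (58.7% GC) and MICA (53.7% GC) exceeded 76.8% and 79.4% of the genes in their eighths. TNFRSF14, also in the highest eighth at 63.7% GC, exceeded 99.8% of its genes, and NECTIN4 (55.8% GC) exceeded 99.8% of the genes in the sixth eighth. CD274 and ULBP2 lie on the low side, with 41.6% and 47.0% GC in eighths whose medians were −0.13 and −0.05, and exceeded 98.7% and 96.1% of the genes there. PVR (55.9% GC) and ULBP1 (43.0% GC) differed from the medians of their eighths by −0.08 and −0.09 on the log2 scale. MICB (55.4% GC) exceeded 85.9% of its eighth. With the GC trend removed, 5 of the 10 genes were called, namely TNFRSF14 (1.56), NECTIN4 (2.17), CD274 (0.78), ULBP2 (0.55) and MICA (0.22), and the part of the trend in the values above was otherwise not tested.

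**Figure D3:**
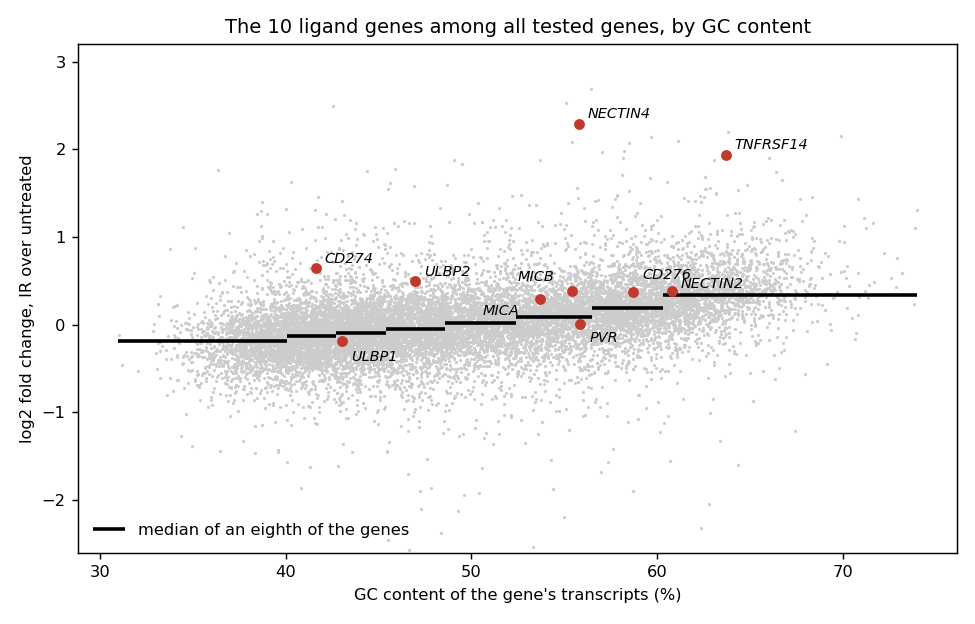
log2 fold change, IR over UT, against the GC content of the transcripts for all tested genes (grey; 7 lie outside the axis) and the 10 ligand genes (red), with black lines at the median of each eighth of the genes by GC content. The medians climb from −0.19 to 0.34, with NECTIN2 on its line and NECTIN4, TNFRSF14, CD274 and ULBP2 far above theirs.

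The deposited values are given per transcript, which shows how each gene's counts were made up. For TNFRSF14, annotated retained-intron transcripts held 45.01 to 74.6% of the counts in UT and 48.4 to 55.1% in IR libraries, and the canonical coding transcript TNFRSF14-201 (8 exons, 1702 bases) held 27.5 ± 8.11% and 30.6 ± 5.60%. This retained-intron share was above that of 98.0% of all tested genes, and retained-intron transcripts held between 4.58% and 4.90% of all counts in every library. Counted from coding transcripts alone, the log2 fold change of TNFRSF14 was 1.82, close to that of all its transcripts. NECTIN4 has only 2 annotated transcripts in the files. The coding NECTIN4-201 (9 exons, 3458 bases) held 93.4%, 92.5% and 100% of its counts in UT and 89.7%, 77.1% and 81.1% in IR libraries, and the rest fell to a transcript with no defined coding sequence, whose share was 0 to 7.55% in UT and 10.4 to 22.9% in IR libraries. The coding transcript alone gave a log2 fold change of 2.07.

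CD276 had the least settled assignment. The retained-intron transcript CD276-207 (2 exons, 1620 bases), which ends at the last base of the gene, held the largest share at 44.3 ± 3.87% in UT and 41.0 ± 9.81% in IR libraries. Coding transcripts held 14.2 to 19.8% of the counts in 5 libraries but 54.6% in IR replicate 3. That difference came from the canonical CD276-202 (10 exons, 3295 bases), which held 37.0% in IR replicate 3, 8.70% and 1.37% in UT replicates 1 and 3 and 0 counts in the other 3 libraries, while the decay-annotated CD276-210 held 14.5% there and 34.9 to 38.4% in the other 5. The total over all CD276 transcripts was even across the IR libraries (159, 159 and 155 CPM). For MICB, the retained-intron MICB-203 held 64.3 ± 12.5% in UT and 77.1 ± 6.92% in IR libraries, and the few coding counts, between 3.07 and 13.3 per library, were given to MICB-204 (2411 bases) in all UT libraries and to MICB-202 (2346 bases) in all IR libraries.

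The other genes were simpler. The canonical MICA-209 held 90.4 ± 2.95% of MICA counts in UT and 93.4 ± 0.53% in IR libraries, and a short transcript with no defined coding sequence, MICA-211, held 5.43 to 7.58% in UT and 2.34 to 3.13% in IR libraries. For CD274 the canonical CD274-202 held 91.8 ± 7.09% in UT and 82.6 ± 9.53% in IR libraries. The coding CD274-201 (6 exons against 7) was listed at 0 counts in all 3 UT libraries and at 7.76, 2 and 35.7 counts in IR replicates 1 to 3. PVR was 78.6 to 90.9% coding over all 6 libraries and NECTIN2 at least 99.6%, and ULBP1 and ULBP2 have 1 transcript each in the files. These shares are estimates from the same reads, and no test of them was made.

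**Figure D4:**
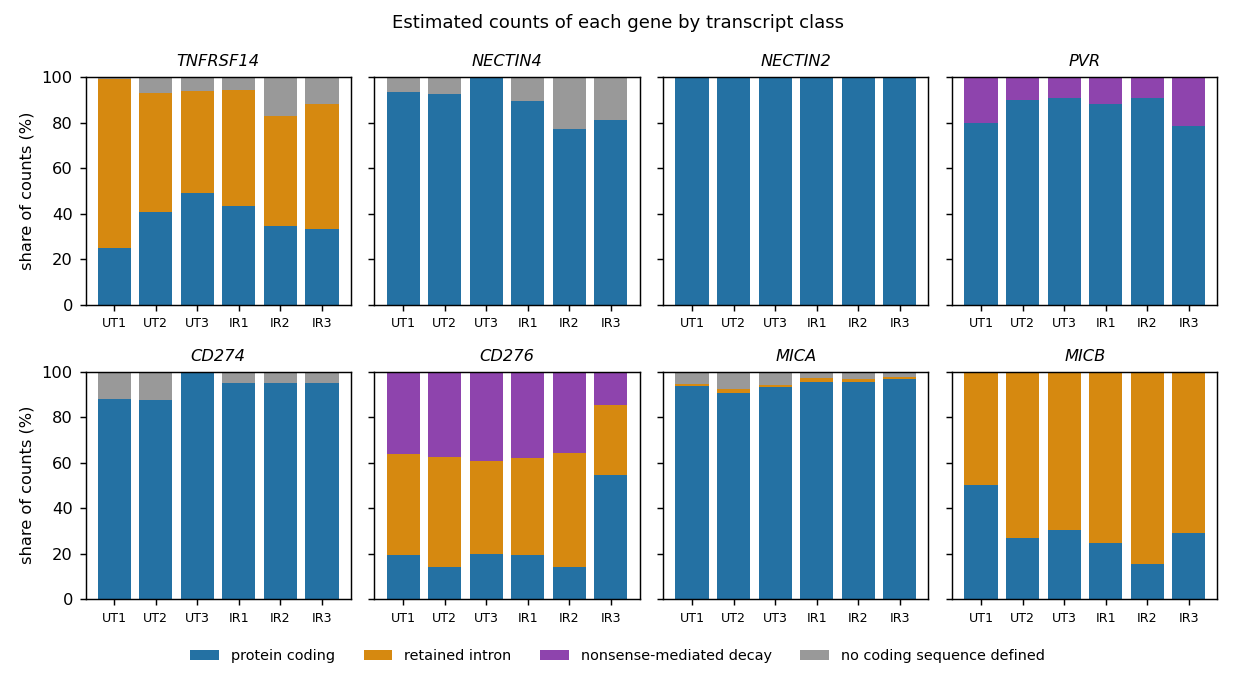
Share of each gene's estimated counts (%) by annotated transcript class in UT replicates 1 to 3 and IR replicates 1 to 3, for the 8 genes with more than 1 transcript. Retained-intron transcripts (orange) take a large share of TNFRSF14, CD276 and MICB in all libraries, IR replicate 3 stands out for CD276 with 54.6% coding, and the share without a defined coding sequence in NECTIN4 is larger in the IR libraries.

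Several of the genes share sequence with relatives, so that reads can be split between them. The share of a gene's 31-base words also found in another gene was 44.7% for ULBP2, most of it with RAET1L, a further NKG2D ligand, and 34.0% for PVR. It was 11.1% for MICB and 7.47% for MICA, largely with each other, and 10.5% for ULBP1, largely with ULBP3. It was 3.94% for CD276 and 0.955% for NECTIN4, and TNFRSF14, NECTIN2 and CD274 shared none. The ULBP2 values are therefore uncertain as a value of that gene alone. Summed over ULBP2, RAET1L and RAET1G, the CPM was 19.2, 15.8 and 14.1 in UT and 19.9, 23.7 and 20.04 in IR libraries, and the groups still did not overlap (log2 ratio of the means 0.37). RAET1L alone was at 4.28 ± 1.29 CPM in UT and 4.72 ± 0.61 CPM in IR libraries. For PVR nearly all sharing was with ENSG00000279095, a predicted transcript on the same strand that overlaps an exon of the gene and was listed at 0 in all 6 libraries, so that the PVR values lost no reads to it. MICA and MICB together gave a log2 ratio of the means of 0.30. Summed over the 7 tested NKG2D ligand genes, the level was 102 ± 3.32 CPM in UT and 122 ± 9.91 CPM in IR libraries. Antisense RNAs overlap TNFRSF14, NECTIN2 and MICB in the annotation and have no entry in the files, and whether the counting used strand was not given in the sources used here. A non-coding RNA on the same strand, ENSG00000288587, overlaps MICA and also has no entry. Strand could not tell its reads from those of MICA.

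The genes whose profile over the 6 libraries was most like that of TNFRSF14, by Euclidean distance of log2 CPM centred on the UT mean, were TFEC (0.51), KRTAP2-3 (0.54) and KANK3 (0.61). Those most like NECTIN4 were KANK3 (0.81), KRTAP2-3 (0.92) and KLHDC7A (0.99). KANK3 and KRTAP2-3 stand in both sets, and the mean of each of these 4 genes in UT libraries was at or under 1.99 CPM.

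The remaining genes of the same families and pathways were taken from 8 lists of 73 genes, of which 54 were tested, 8 called higher and 9 called lower (14.8% and 16.7%), beside 15.5% and 14.5% over all tested genes. The number lower was 5 without UT replicate 1, UT replicate 3 or IR replicate 2. Of 7 nectins, nectin-like molecules and afadin, 6 were tested and none was called higher. NECTIN3 fell by 0.29 on the log2 scale (adjusted P = 0.0177), and so did AFDN, the adaptor that ties nectins to actin (−0.48, adjusted P = 0.00357), while NECTIN1 was at −0.04 (adjusted P = 0.722). NECTIN3 was no longer called without UT replicate 1 (−0.29), UT replicate 3 (−0.26) or IR replicate 2 (−0.27), or with the GC trend removed (−0.15), where NECTIN1 was called lower instead (−0.26). The NECTIN3 call was also lost with the offset for effective length (−0.34) and in TPM with limma (−0.38). The NKG2D ligands ULBP3 (0.02, adjusted P = 0.931), RAET1G (0.11, adjusted P = 0.765) and RAET1L (0.13, adjusted P = 0.673) were not called, beside 0.49 for ULBP2 and 0.29 for MICA. All adjusted P values here are from edgeR's quasi-likelihood test.

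In the B7 family 5 of 9 other genes were tested. ICOSLG, which co-stimulates T cells through ICOS, was called higher (0.70, edgeR adjusted P = 0.00244), though not in TPM with limma (0.60). NCR3LG1, the ligand of the NK cell receptor NKp30, was called lower (−0.60, edgeR adjusted P = 0.0203) but not without UT replicate 2 (−0.53), UT replicate 3 (−0.60) or IR replicate 2 (−0.48). The NCR3LG1 call was also lost with the offset for effective length (−0.59), in TPM with limma (−0.51) and from coding transcripts alone (−0.59). PDCD1LG2 (PD-L2), the second ligand of PD-1, had the same estimate as CD274 (0.64) at 1.00 ± 0.34 CPM in UT libraries and was not called (edgeR adjusted P = 0.130). Beside TNFRSF14, 4 of 9 TNF superfamily partners and co-stimulatory genes were tested and all 4 were called higher, beside 15.5% of all tested genes. These were CD70 (0.93, edgeR adjusted P = 2.91e-04), TNFSF9, which encodes the ligand of 4-1BB (0.74, edgeR adjusted P = 0.00132), LTBR, another receptor of LIGHT (0.44, edgeR adjusted P = 0.00172), and CD40 (0.42, edgeR adjusted P = 0.00934). All 4 were smaller than the 1.94 of TNFRSF14, and the median over them was 0.59. In the eighth of genes from 56.5 to 60.3% GC, which holds LTBR, CD70 and TNFSF9, 27.6% were called higher. In that of CD40, from 48.6 to 52.4% GC, 11.6% were. LTBR was not called with the GC trend removed (0.19). With the offset for effective length and in TPM with limma, LTBR (0.33 and 0.27) and CD40 (0.35 and 0.29) were not called. CD40 was not called from coding transcripts alone either (0.58), while CD70 and TNFSF9 stayed called in each of these settings.

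Of 9 lymphocyte receptors for these ligands only 2 were tested and none was called, and BTLA, TIGIT and PDCD1 each averaged under 1 CPM in both groups. Among 10 other surface molecules read by immune cells, 9 were tested. CD59 (0.26, edgeR adjusted P = 0.0125) and CD99 (0.32, edgeR adjusted P = 0.0214) were called higher and CD200 lower (−0.73, edgeR adjusted P = 0.0239). The CD59 call was lost without UT replicate 1 (0.27), and those of CD99 and CD200 without UT replicate 1 (0.32 and −0.66), UT replicate 3 (0.29 and −0.58) or IR replicate 2 (0.23 and −0.68). Of 8 genes for shedding and surface handling, MMP14, a membrane metalloproteinase that can shed MICA, was called higher (0.39, edgeR adjusted P = 0.00234; 0.17 and still called with the GC trend removed) and the inhibitor TIMP3 lower (−0.27, edgeR adjusted P = 0.0141), the latter not without UT replicate 1 (−0.25) or 2 (−0.26), while ADAM10, ADAM17 and CMTM6, which stabilizes PD-L1, were not called. Of 17 regulators of the ligand genes none was called higher, and ATM (−0.37, edgeR adjusted P = 0.00415), ATR (−0.33, edgeR adjusted P = 0.00875), CHEK1 (−0.22, edgeR adjusted P = 0.0438) and JAK2 (−0.52, edgeR adjusted P = 0.0117) were called lower. The CHEK1 call held only without IR replicate 1 (−0.29) among the 6 fits that each left out a library, with estimates in the other 5 between −0.24 without UT replicate 1 and −0.19 without IR replicate 3, and ATM and ATR turned positive with the offset for effective length. With the GC trend removed the calls of ATR (−0.17), CHEK1 (−0.12) and JAK2 (−0.30) were lost, and ATM was at −0.22 and still called. IRF1 (0.32) was not called (edgeR adjusted P = 0.0863).

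**Figure D5:**
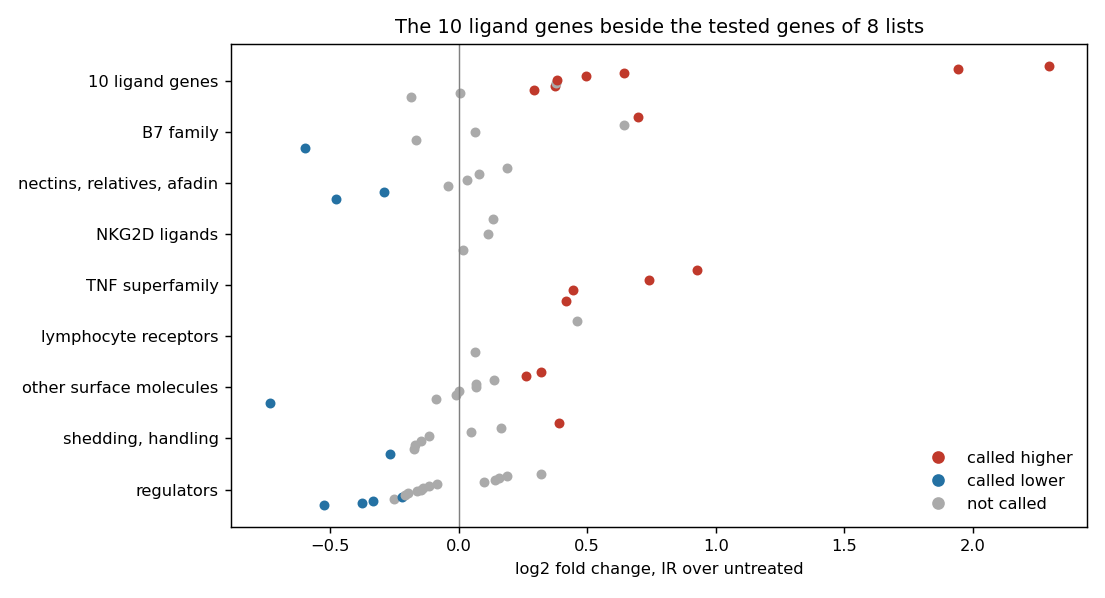
log2 fold change, IR over UT, of the 10 ligand genes (top row) and of the 54 tested genes of 8 lists, 1 point per gene, red where called higher, blue where called lower and grey where not called. TNFRSF14 and NECTIN4 lie to the right of every listed gene, the 4 TNF superfamily genes are all red, and the regulators hold 4 blue points and no red one. Over all tested genes 15.5% were called higher and 14.5% lower.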

How the data were processed

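Bulk RNA-seq was made from 3 untreated and 3 irradiated samples of U-2 OS cells. According to the labels poly(A) RNA was sequenced with an mRNA kit, whereas a total RNA kit stands in the study's methods. The authors trimmed reads with fastp and ran kallisto against GENCODE release 37 of GRCh38 (the kallisto version is not given in the sources used here). Per the file headers, the deposited files hold estimated counts, TPM, length and effective length for each transcript. No replicates were pooled. Effective length exceeded length for 24.2 to 29.1% of transcripts, so the offset for it may also act on sequence bias.

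Of 161171 transcripts, 158711 matched GENCODE release 44 by identifier, and the 2460 others were left out. All 68 transcripts of the 10 genes had the same length in both releases. The estimated counts of a gene's transcripts were added up, with the sum rounded. Genes were kept by filterByExpr, scaled by TMM and tested by edgeR's quasi-likelihood test (R 4.3.3, edgeR 4.0.16, limma 3.58.1, DESeq2 1.42.0) with P values adjusted by Benjamini–Hochberg and called under 0.05. Alternatives were no filter, at least 10 counts in every library, a likelihood ratio test in edgeR, size factors of DESeq2 and its Wald test, the replicate number as a block, the GC trend removed (loess, span 0.3), both together, an offset for effective length, TPM with limma (pseudocount 0.5), each library left out, and, chosen after seeing the data, protein-coding transcripts only. With 3 libraries against 3, the smallest two-sided P value of an exact permutation test is 0.1. Tested on simulated data for IR against untreated, where 200 of 14323 genes were changed, the fit recovered 61% of genes changed by 0.5 and 81% of those changed by 1 on the log2 scale, and called 12 unchanged genes. In the data themselves 30.1% of tested genes were called, a larger share than was changed here, so these rates need not hold for them. Promoters were aligned with Biopython 1.88.

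The 10 genes, the lists and the motifs were chosen with earlier results of these data known. Named genes are the 10, every called gene of the lists, close relatives and partners of the 10, and the 3 nearest profiles of TNFRSF14 and NECTIN4, and BTLA, TIGIT, PDCD1, IRF1, ADAM10, ADAM17 and CMTM6 were added after their values were seen. The scRNA-seq and imaging of the study were not analysed here, and some genes of the lists and 1 motif are not reported here.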

Additional observations from a re-analysis of the deposited data

How the results depend on the processing

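Against 2227 genes called higher and 2080 lower, the offset for effective length gave 837 and 875, and TPM with limma 400 and 901, where 30.7% of the called genes were higher against 51.7%. The replicate block with the GC trend removed gave 1365 higher, and protein-coding transcripts alone gave 1277 higher. Leaving out single libraries gave 1295 to 2114 higher and 1244 to 2284 lower, the lowest without untreated replicate 1 and untreated replicate 2. Of the 10 ligand genes, 7 were called, 4 with the block and the GC trend removed, 4 with the length offset, 2 with TPM and limma, and 4 to 6 without single libraries, with 4 without IR replicate 2. Of the listed genes, 8 were called higher and 9 lower, against 4 and 3 with the length offset and 2 and 4 with TPM and limma, and 6 to 9 higher and 5 to 12 lower without single libraries, with 5 lower without untreated replicate 1, untreated replicate 3 or IR replicate 2. ATM turned from −0.37 to 0.11 with the length offset and 0.064 with TPM, and ATR from −0.33 to 0.24 and 0.19. The cause was not tested. TNFRSF14 and NECTIN4 were called under all 17 alternatives.

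The replicate numbers are shared by the groups but carry no stated pairing, and the deviations of same-numbered libraries correlated at −0.0175, 0.00720 and −0.0519. The replicate block alone gave 1727 genes higher and 1624 lower, and under it CD274 (0.65) and CHEK1 (−0.22) were not called. MICB has no value from coding transcripts alone, since it was then removed by the filter. Depth limits ULBP1, MICB and CD274, with 10 to 51 counts in untreated libraries. It also limits the untreated levels of NECTIN4, with 27 to 59 counts, and TNFRSF14, with 60 to 75.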
